A study of Homo sapiens with 2 samples.

Results

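The genes described here are 7 matrix metalloproteinases (MMP1, MMP2, MMP7, MMP9, MMP14, MMP15 and MMP24) and 3 tissue inhibitors of metalloproteinases (TIMP1, TIMP2 and TIMP3), 10 of the 26535 genes listed in both libraries of the study. They were chosen by name as members of an enzyme family and of the family of its inhibitors, and the rule itself uses no measured value. Each gene's level is the sum of its RefSeq transcripts and of stranded assembled transcripts that share an intron with it. The tested cells were A549 cells carrying an shRNA against PSPC1, a paraspeckle protein that binds RNA (shPSPC1). The control cells were A549 cells whose shRNA was directed at the bacterial LacZ gene, absent from human cells (shLacZ). A549 is a human lung adenocarcinoma line, labelled as non-small cell lung cancer, and both groups grew in the same medium, which held 10% bovine serum and 1% antibiotics. Each group holds 1 library, so no difference has a replicate check and no p-value is given. Whether each shRNA line was a clone or a pool, how many shRNA sequences were used and how long they were expressed are not given in the sources used here.

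Matrix metalloproteinases are zinc-dependent enzymes, made as inactive proenzymes, that cut collagens, laminins, fibronectin and many cell surface proteins. Most are secreted, while the membrane-type members stay on the cell surface. TIMPs bind the active site of these enzymes and block it, so the ratio of enzyme to inhibitor is a common way to describe a cell's capacity to digest matrix. Transcript levels do not measure secreted protein, activation of the proenzymes or activity.

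The RefSeq promoter table (build GRCh38.p14) matched 6 of the 10 members, 4 enzymes (MMP7, MMP14, MMP15 and MMP24) and 2 inhibitors (TIMP1 and TIMP3). The 250 bases before the annotated start are shown for 4 of them that were at 1 FPKM or more, since these carry most of the enzyme and inhibitor RNA in both libraries. FPKM is fragments per kilobase of transcript and per unit of sequencing depth, a level corrected for length. Capitals mark matches, on either strand, to 4 motifs: TGANTCA, the AP-1 motif bound by Fos and Jun proteins, CTTTGAA, a motif of the TCF/LEF factors of the Wnt pathway, GGGCGG, the GC box bound by Sp1, and TATAAA, the TATA box. The MMP7 window lies at chr11:102530748-102530997 on the minus strand, the MMP24 window at chr20:35226440-35226689, the MMP15 window at chr16:58025504-58025753 and the TIMP1 window at chrX:47582186-47582435, these last all on the plus strand, and each is written 5′ to 3′.
MMP7: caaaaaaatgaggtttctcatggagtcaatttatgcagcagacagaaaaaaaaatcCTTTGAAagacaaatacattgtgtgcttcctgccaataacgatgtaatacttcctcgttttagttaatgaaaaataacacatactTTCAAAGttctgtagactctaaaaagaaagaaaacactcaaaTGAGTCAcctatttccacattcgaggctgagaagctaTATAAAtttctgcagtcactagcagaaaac
MMP24: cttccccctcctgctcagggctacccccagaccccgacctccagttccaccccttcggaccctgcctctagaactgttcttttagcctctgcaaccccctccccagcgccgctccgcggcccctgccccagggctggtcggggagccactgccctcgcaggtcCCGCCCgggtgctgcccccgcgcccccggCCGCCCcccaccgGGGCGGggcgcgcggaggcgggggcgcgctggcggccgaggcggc
MMP15: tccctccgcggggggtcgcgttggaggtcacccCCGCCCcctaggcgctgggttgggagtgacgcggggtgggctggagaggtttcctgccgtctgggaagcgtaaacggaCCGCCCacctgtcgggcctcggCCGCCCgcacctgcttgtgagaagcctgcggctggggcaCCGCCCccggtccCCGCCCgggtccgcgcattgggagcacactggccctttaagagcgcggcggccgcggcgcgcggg
TIMP1: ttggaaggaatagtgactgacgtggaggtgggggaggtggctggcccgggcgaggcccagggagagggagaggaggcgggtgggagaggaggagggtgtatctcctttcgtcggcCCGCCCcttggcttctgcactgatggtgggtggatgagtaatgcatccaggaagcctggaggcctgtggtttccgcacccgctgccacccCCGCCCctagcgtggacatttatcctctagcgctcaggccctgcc

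The MMP7 window read differently from the others. It was 33.6% G and C, and it held 1 AP-1 match at -67 to -61 from the start, 2 TCF/LEF matches at -194 to -188 and -109 to -103, the second of them on the opposite strand, and 1 TATA match at -30 to -25. It had no GC box match, and none of its matches overlapped another. The MMP24 window was 77.6% G and C with 3 GC box matches, the MMP15 window 74.8% with 5, and the TIMP1 window 64.8% with 2. Of the 6 windows, only that of MMP7 held an exact AP-1, TCF/LEF or TATA match, and the other 5 each held a GC box. Near variants of these motifs were not counted, so a window without a match may still hold one. Among all 35116 windows of the table, 6.57% held the AP-1 motif, 3.80% the TCF/LEF motif, 42.6% the GC box and 10.7% the TATA motif. Among the 13482 windows of genes that reached 1 FPKM in either library, these shares were 4.23% for AP-1, 2.46% for TCF/LEF, 64.0% for the GC box and 5.92% for TATA. These matches describe letters in a window and show nothing about which factors were bound.

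PSPC1 itself was checked first. It stood at 17.7 ± 0.858 FPKM in the shPSPC1 library and 31.5 ± 1.25 FPKM in the shLacZ library, each with the half-width of the 95% interval. Its level in shPSPC1 was thus 56.3% of that in shLacZ (interval of the ratio 52.9 to 60.0%), so the knockdown at the RNA level was partial. The libraries were of like depth, at about 57100000 fragments in shPSPC1 and 56200000 in shLacZ by estimate. Keratins of lung epithelium were abundant, KRT18 at 1184 FPKM in shPSPC1 and 1449.7 in shLacZ, whereas 15 of 18 markers of stromal and immune cells were under 1 FPKM in both libraries. The intervals used throughout come from the deposited files, or are built from them for sums and ratios, and they cover counting and the sharing of reads between transcripts, not the variation between cultures. In RNA from a whole culture, fewer cells that express a gene and less of its RNA per cell cannot be told apart.

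Of the 10 members, 9 had a lower level in shPSPC1 than in shLacZ and only MMP14 a higher one. Among the 16297 genes above 0 in both libraries, 49.97% were lower in shPSPC1. A gene was called lower or higher where it reached 1 FPKM in either library, its log2 ratio of shPSPC1 over shLacZ with a pseudocount of 1 FPKM was at least 1 in size, and its intervals did not overlap. By this rule, MMP7 and TIMP2 were called lower, 2 of the 6 members that reached 1 FPKM, and 0 members were called higher. Of the 11746 genes that reached 1 FPKM, 2.05% were called lower and 1.84% higher. At 1.5-fold, MMP24 joined the lower ones, giving 3 lower and 0 higher, against 5.57% and 4.54% of all genes. The intervals alone separated 5 of the 6 members downward, all but TIMP1, and 0 upward, against 25.4% and 26.0% of all genes.

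**Figure D1:**
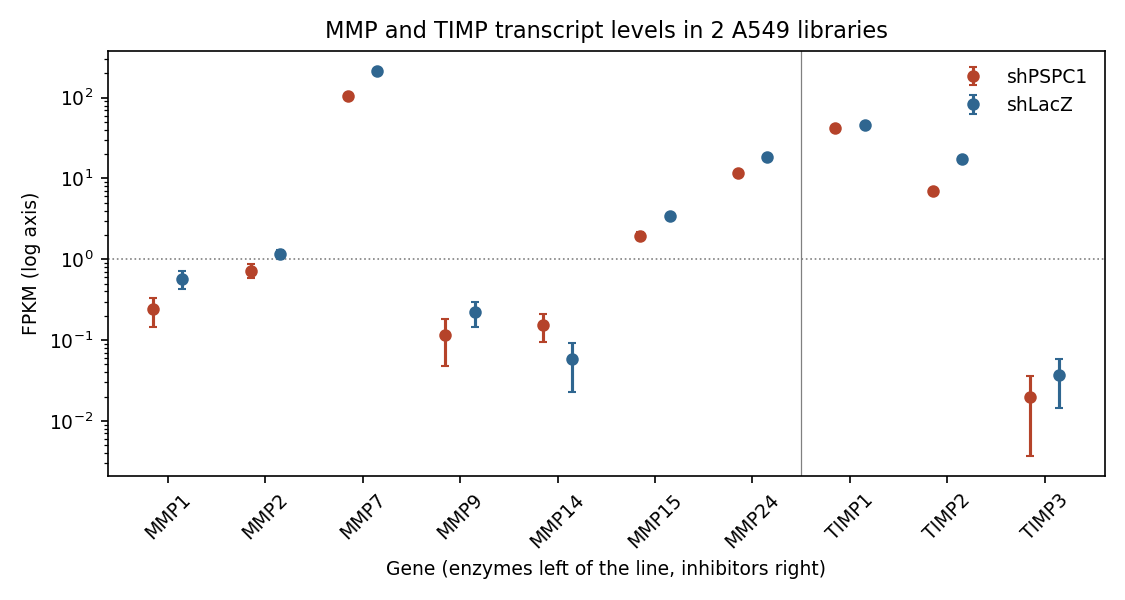
Level of each member in FPKM on a log axis, with the shPSPC1 library left of the shLacZ library for each gene; bars are 95% intervals of the deposited files, some smaller than the symbols, and the dotted line is 1 FPKM. MMP7, TIMP1, MMP24 and TIMP2 are the most abundant members in both libraries, and every pair but that of MMP14 has its higher value in shLacZ.

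MMP7, or matrilysin, is a small secreted enzyme that lacks the hemopexin domain of most relatives and is made by epithelial cells, in the lung among other tissues. It was by far the most abundant member. MMP7 stood at 105 FPKM (interval 102 to 108) in shPSPC1 and 216 FPKM (212 to 219.7) in shLacZ, resting on an estimated 5710 fragments in shPSPC1 and 11609 in shLacZ. It fell to 48.6% (47.0 to 50.2%) of the shLacZ level, a log2 ratio of -1.03 with the pseudocount. In shPSPC1, 535 genes had a higher FPKM than MMP7, against 270 in shLacZ. A single annotated transcript of 6 exons and 1119 bases carried the whole signal in both libraries, from 102391239 to 102401478 on chromosome 11 (minus strand) in the coordinates of the files. The sources used here do not name the genome build of those coordinates.

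TIMP2 is a secreted inhibitor that blocks many of these enzymes and, in complex with MMP14 on the cell surface, also serves as the docking partner through which pro-MMP2 is activated. It was the member with the largest drop past the rule. TIMP2 stood at 7.06 FPKM (6.68 to 7.43) in shPSPC1 and 17.6 FPKM (17.0 to 18.2) in shLacZ, from an estimated 1407 fragments in shPSPC1 and 3447 in shLacZ. It fell to 40.2% (37.7 to 42.8%) of the shLacZ level, a log2 ratio of -1.20. Only 197 of the 11746 genes at 1 FPKM or more had a lower log2 ratio than TIMP2, and 247 had a lower one than MMP7. Its 1 annotated transcript has 5 exons and 3655 bases and spans 76849059 to 76921472 on the minus strand of chromosome 17.

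TIMP1, the other abundant inhibitor, is secreted and inhibits most soluble metalloproteinases but is a poor inhibitor of transmembrane membrane-type enzymes. It stood at 42.1 FPKM (40.1 to 44.1) in shPSPC1 and 45.4 FPKM (43.3 to 47.5) in shLacZ. These intervals overlapped, and the level in shPSPC1 was 92.7% (86.8 to 99.0%) of that in shLacZ, a log2 ratio of -0.11. The abundant inhibitors thus stood far apart in their ratios, TIMP2 at 40.2% and TIMP1 at 92.7% of shLacZ. TIMP3, an inhibitor that binds to the extracellular matrix, was near the limit of detection, at 0.0197 FPKM in shPSPC1 and 0.0368 FPKM in shLacZ from an estimated 6 fragments in shPSPC1 and 11 in shLacZ. Its intervals overlapped, and at this depth no difference could be seen.

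Of the membrane-type enzymes, MMP24 and MMP15 lay below their shLacZ levels and MMP14 was scarce. MMP24, a transmembrane enzyme best known from nervous tissue, stood at 11.7 FPKM (11.2 to 12.1) in shPSPC1 and 18.6 FPKM (18.0 to 19.1) in shLacZ. Its level in shPSPC1 was 63.0% (60.0 to 66.2%) of that in shLacZ, a log2 ratio of -0.62, under the 2-fold rule and past the 1.5-fold one. MMP15, a transmembrane enzyme found in many epithelia, stood at 1.96 FPKM (1.74 to 2.18) in shPSPC1 and 3.39 FPKM (3.15 to 3.62) in shLacZ, 57.8% (50.6 to 66.0%) of the control level. Its intervals did not overlap, but its log2 ratio of -0.57 with the pseudocount of 1 FPKM was just short of 1.5-fold. That call turned on the processing: the log2 ratio was -0.65 on estimated fragments and -0.76 with a pseudocount of 0.1 FPKM, both beyond 1.5-fold. MMP14, the main activator of pro-MMP2, was at 0.152 FPKM (0.0950 to 0.209) in shPSPC1 and 0.0580 FPKM (0.0230 to 0.0929) in shLacZ. It was the only member higher in shPSPC1, at 262% (129 to 533%) of the shLacZ level, but this rests on an estimated 29 fragments in shPSPC1 and 11 in shLacZ, and both levels are under the minimum of the rule.

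The other secreted enzymes were near or under 1 FPKM. MMP2, the gelatinase that degrades type IV collagen, stood at 0.724 FPKM (0.585 to 0.862) in shPSPC1 and 1.16 FPKM (1.01 to 1.32) in shLacZ. MMP1, a collagenase of fibrillar collagens, stood at 0.241 FPKM (0.146 to 0.335) in shPSPC1 and 0.573 FPKM (0.426 to 0.720) in shLacZ. For both genes the intervals did not overlap, and the levels in shPSPC1 were 62.2% (49.2 to 78.7%) of shLacZ for MMP2 and 42.0% (26.3 to 67.1%) for MMP1. MMP9, the other gelatinase and in tissue a product of neutrophils and macrophages as well, stood at 0.116 FPKM (0.0483 to 0.184) in shPSPC1 and 0.221 FPKM (0.143 to 0.299) in shLacZ, with intervals that overlapped. MMP1 rested on an estimated 26 fragments in shPSPC1 and 61 in shLacZ, and MMP9 on 16 in shPSPC1 and 33 in shLacZ.

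**Figure D2:**
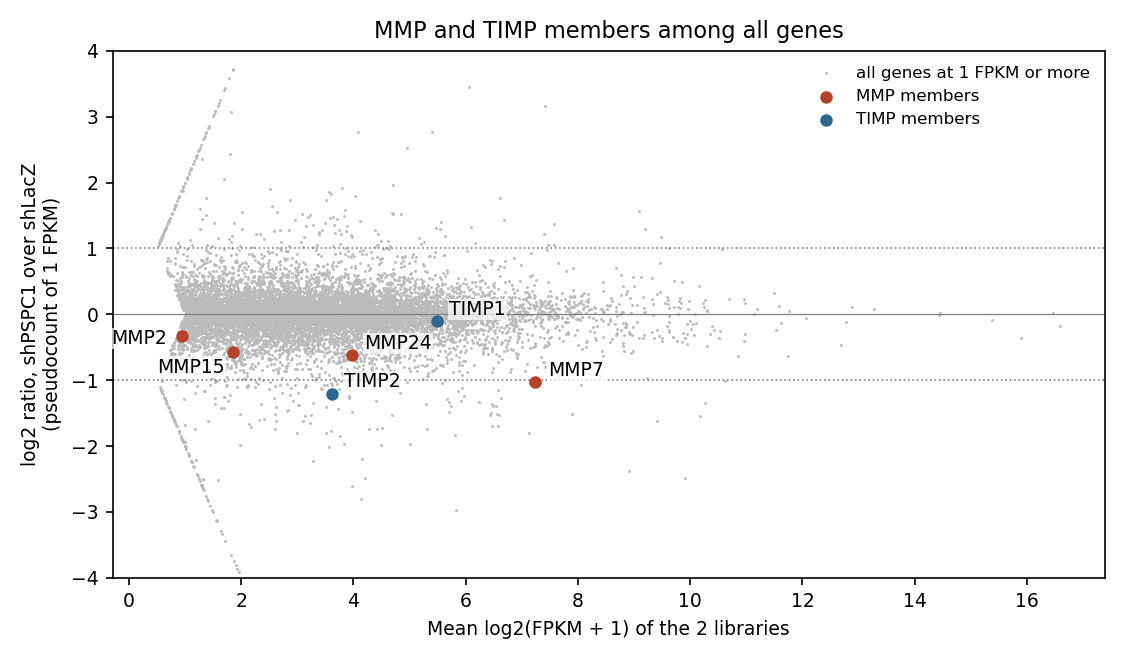
Log2 ratio of shPSPC1 over shLacZ (pseudocount of 1 FPKM) against the mean log2(FPKM + 1) of both libraries, for the genes that reached 1 FPKM in either; dotted lines mark log2 ratios of 1 and -1, and 41 genes lie beyond the axis. All 6 members shown are below 0, TIMP2 and MMP7 beyond -1 and TIMP1 nearest to 0.

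Transcript structure adds little for 7 members, whose whole level came from 1 annotated transcript in both libraries. MMP1 and MMP2 each have a second annotated isoform, listed at 0 in both. In the shPSPC1 library only, 0.120 of the 0.724 FPKM of MMP2 came from an assembled transcript of 13 exons beside the annotated one, at 0.604 FPKM. Likewise 0.369 of the 1.96 FPKM of MMP15 in shPSPC1, 18.8% of the gene, came from an assembled transcript of 7 exons that starts inside the gene, at 58075222, whereas the annotated form stood at 1.59 FPKM in shPSPC1 and 3.39 FPKM in shLacZ. With the annotated transcript alone, the log2 ratio of MMP15 was -0.76, also beyond 1.5-fold. For MMP9, the annotated 13-exon transcript stood at 0.0429 FPKM in shPSPC1 and was listed at 0 in shLacZ, and the rest came from 12-exon assembled transcripts at 0.0735 FPKM in shPSPC1 and 0.221 FPKM in shLacZ, so its direction depends on whether assembled forms are counted.

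The summed enzymes and inhibitors show the balance of transcripts. The 7 enzymes summed to 119.6 ± 2.82 FPKM in shPSPC1 and 239.6 ± 4.06 FPKM in shLacZ, 49.9% of the level in shLacZ (log2 ratio -1.002, -1.04 to -0.96). MMP7 made up 87.6% of this sum in shPSPC1 and 90.0% in shLacZ, and MMP24 made up 9.77% in shPSPC1 and 7.74% in shLacZ. The 3 inhibitors summed to 49.2 ± 2.02 FPKM in shPSPC1 and 63.0 ± 2.15 FPKM in shLacZ, 78.1% of the level in shLacZ (log2 ratio -0.36, -0.43 to -0.28). TIMP1 made up 85.6% of the inhibitors in shPSPC1 and 72.1% in shLacZ, and TIMP2 made up 14.4% in shPSPC1 and 27.9% in shLacZ. The enzyme to inhibitor ratio was 2.43 (2.32 to 2.55) in shPSPC1 and 3.80 (3.66 to 3.95) in shLacZ, a log2 difference of -0.65 (-0.73 to -0.56).

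**Figure D3:**
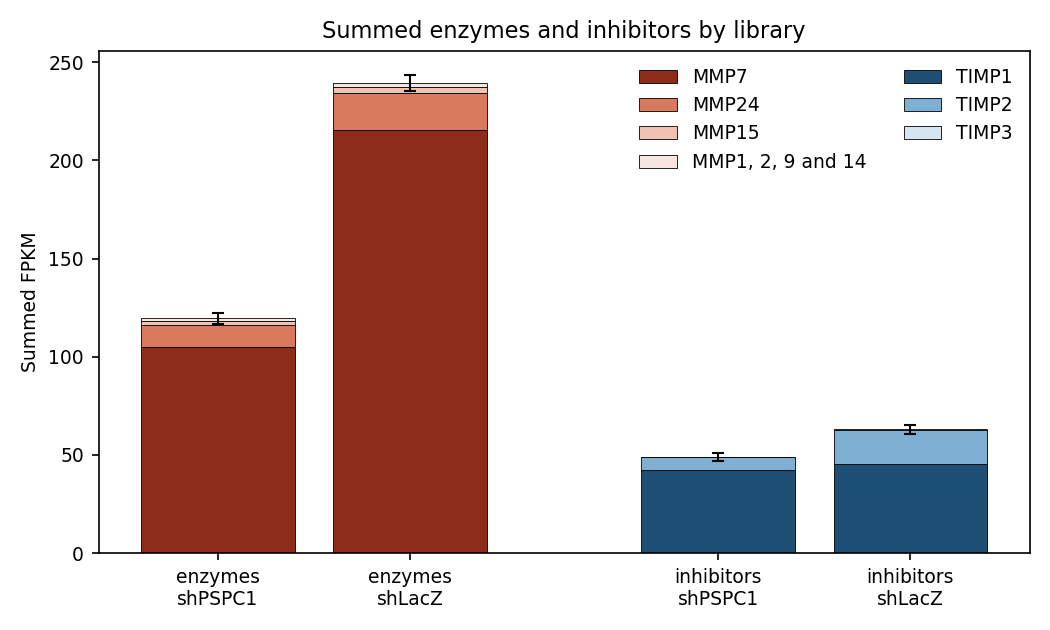
Summed FPKM of the enzymes and of the inhibitors in each library, each stack starting at 0 with the most abundant member at the bottom; bars are the 95% interval of the sum. MMP7 fills most of the enzyme stacks, 87.6% in shPSPC1 and 90.0% in shLacZ, and TIMP1 most of the inhibitor stacks.

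The direction of the balance depended on which members were set against each other. MMP7 over TIMP1, the most abundant pair, was 2.49 in shPSPC1 and 4.75 in shLacZ, a log2 difference of -0.93 (-1.04 to -0.83). Against TIMP2, each enzyme tried (MMP2, MMP7, MMP14, MMP15 and MMP24) pointed the other way. This had to be so, since TIMP2, at 40.2% of shLacZ, fell further than every other member. These ratios share a denominator and restate the drop of TIMP2. MMP7 over TIMP2 was 14.8 in shPSPC1 and 12.3 in shLacZ (log2 difference 0.27), MMP24 over TIMP2 was 1.66 in shPSPC1 and 1.06 in shLacZ (0.65), MMP15 over TIMP2 was 0.277 in shPSPC1 and 0.193 in shLacZ (0.52), and MMP2 over TIMP2 was 0.103 in shPSPC1 and 0.0663 in shLacZ (0.63). MMP14 over TIMP2 also pointed up, at a log2 difference of 2.70 (1.68 to 3.73), but from the few fragments given above. Leaving TIMP1 out of the inhibitors turned the summed balance round, to 16.9 in shPSPC1 and 13.6 in shLacZ (log2 difference 0.31, 0.21 to 0.41). Without TIMP1, nearly all of the inhibitor sum was TIMP2. TIMP4, at 6.61 FPKM in shPSPC1 and 8.16 FPKM in shLacZ, is not a member and was left out of every sum. The balance with TIMP4 was not calculated. Leaving MMP7 out of the enzymes kept the direction at a smaller size, with ratios of 0.303 in shPSPC1 and 0.380 in shLacZ (log2 difference -0.33). Secreted enzymes alone gave -0.68 and membrane-type enzymes alone -0.32, both over all 3 inhibitors. Since TIMP1 inhibits transmembrane enzymes poorly, the sums are arithmetic on transcript levels and not a measure of inhibition. MMP9 over TIMP1 was 0.00277 in shPSPC1 and 0.00487 in shLacZ, with an interval of the log2 difference that held 0 (-1.81 to 0.17).

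**Figure D4:**
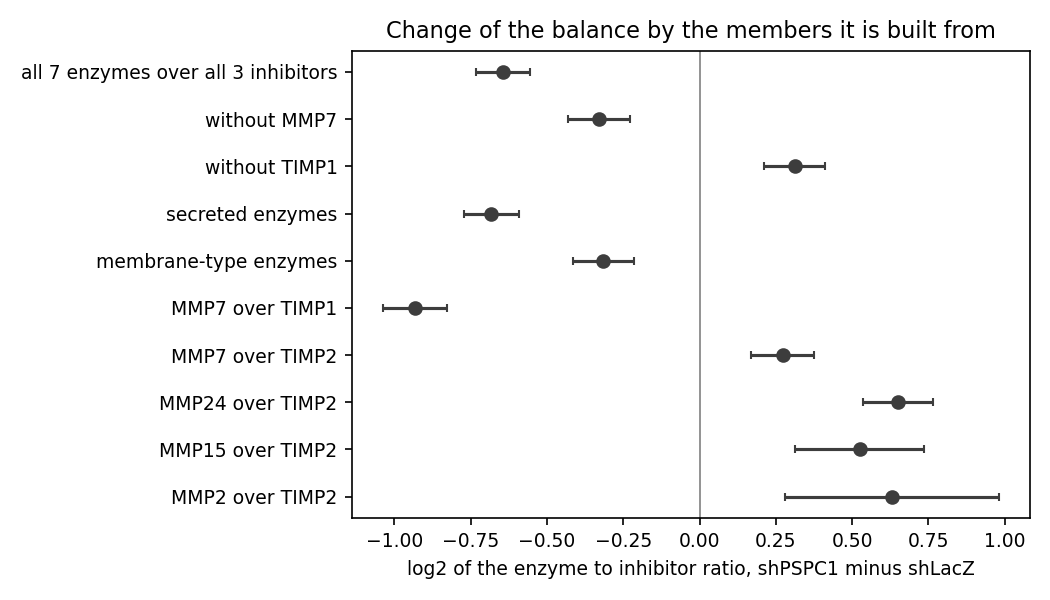
Log2 difference of the enzyme to inhibitor ratio, shPSPC1 minus shLacZ, for the summed members and for single pairs, with 95% intervals; 0 means no difference in the ratio. The ratios that include TIMP1 lie left of 0 and the ratios over TIMP2 alone, or without TIMP1, lie right of it.

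MMP7 and MMP1 belong to a cluster of metalloproteinase genes on chromosome 11, of which 9 were looked up, all on the minus strand. All but MMP7 were under 1 FPKM in both libraries. MMP10, a stromelysin, stood at 0.194 FPKM (0.102 to 0.286) in shPSPC1 and 0.951 FPKM (0.722 to 1.18) in shLacZ from an estimated 18 fragments in shPSPC1 and 83 in shLacZ, and its intervals did not overlap. In shLacZ, 0.154 of the MMP10 level came from an assembled 9-exon minus-strand transcript that begins at the start of MMP3 and runs across MMP1 into MMP10. MMP3, the other stromelysin, stood at 0.130 FPKM in shPSPC1 and 0.229 FPKM in shLacZ, and MMP12, the macrophage elastase, at 0.0205 FPKM in shPSPC1 and 0.0830 FPKM in shLacZ, each with overlapping intervals. MMP20 was listed at 0 in shPSPC1 and at 0.0198 FPKM in shLacZ, MMP13 rested on 1 fragment in each library, and MMP8 and MMP27 were listed at 0 in both. Among the genes within 250 kb of MMP7 that are not metalloproteinases, BIRC3, a regulator of cell death and NF-kappaB signalling, stood at 23.6 FPKM in shPSPC1 and 27.9 in shLacZ, BIRC2 at 16.3 in shPSPC1 and 15.6 in shLacZ, and TMEM123 at 76.5 in shPSPC1 and 91.2 in shLacZ, none of them past 1.5-fold. Within 250 kb of TIMP2, 7 other genes reached 1 FPKM, and they did not share a direction. LGALS3BP, a secreted glycoprotein, stood at 47.9 FPKM in shPSPC1 and 71.5 in shLacZ, and C1QTNF1 at 13.4 in shPSPC1 and 22.0 in shLacZ, the second past 1.5-fold. RBFOX3, an RNA-binding splicing regulator, lay the other way, at 1.28 FPKM in shPSPC1 and 0.564 in shLacZ (log2 ratio 0.54), with intervals that did not overlap. CANT1 at 15.5 in shPSPC1 and 14.8 in shLacZ, CYTH1 at 7.88 in shPSPC1 and 8.40 in shLacZ, ENGASE at 4.23 in shPSPC1 and 4.43 in shLacZ, and a transcript with no symbol in the tables used here at 5.22 in shPSPC1 and 5.18 in shLacZ had overlapping intervals. All neighbours within the window that reached 1 FPKM are given.

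Among 17 further genes, metalloproteinases and TIMP4, only 3 reached 1 FPKM, 0 were past either size, and 4 were listed at 0 in both libraries. The median log2 ratio of these 3 was -0.08, against 0.01 for all genes at 1 FPKM or more. TIMP4 was the most abundant, at 6.61 FPKM in shPSPC1 and 8.16 FPKM in shLacZ, 81.0% (72.2 to 90.9%) of the control level. Its intervals did not overlap, and its log2 ratio was -0.27 with the pseudocount and -0.49 on estimated fragments. The genes that activate metalloproteinases or belong to the plasminogen system numbered 15, of which 10 reached 1 FPKM. Of these 10, 9 were below 0 and 0 were past either size, with a median of -0.26. Among the 9, PCSK7 (-0.012) and PCSK5 (-0.075) had overlapping intervals. Of all genes at 1 FPKM or more, 48.95% were below 0. BSG, the inducer of metalloproteinases also called basigin, stood at 173 FPKM in shPSPC1 and 152 in shLacZ. CD151, the next in abundance, stood at 119.4 FPKM in shPSPC1 and 128.4 in shLacZ (log2 ratio -0.10). CD44, a hyaluronan receptor that can hold MMP7 and MMP9 at the cell surface, stood at 31.3 FPKM in shPSPC1 and 45.8 in shLacZ (log2 ratio -0.53), and PLAU, the urokinase that makes plasmin, at 26.3 FPKM in shPSPC1 and 37.0 in shLacZ (-0.48).

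Other protease inhibitors numbered 9, of which 6 reached 1 FPKM, 0 were past 2-fold and 3 were past 1.5-fold, all lower. Of all genes at 1 FPKM or more, 2.05% were called lower at 2-fold and 5.57% at 1.5-fold. Among these inhibitors, TFPI2, a Kunitz-type inhibitor, stood at 83.6 FPKM in shPSPC1 and 149 in shLacZ (log2 ratio -0.82). SERPINE2, an inhibitor of serine proteases, stood at 14.6 FPKM in shPSPC1 and 29.2 in shLacZ (-0.95). SPINT2, the most abundant of them, stood at 192 FPKM in shPSPC1 and 166 in shLacZ, a log2 ratio of 0.21 that turned to -0.11 on estimated fragments. CST3 stood at 107.8 FPKM in shPSPC1 and 117.4 in shLacZ (log2 ratio -0.12). The related ADAM and ADAMTS metalloproteinases numbered 16, of which 10 reached 1 FPKM, 0 were past 2-fold and 3 (ADAM19, ADAM28 and ADAMTS12) were past 1.5-fold, all lower. ADAM19 stood at 2.22 FPKM in shPSPC1 and 5.37 FPKM in shLacZ, 41.4% (37.9 to 45.3%) of the control level. Its log2 ratio was -0.98 with the pseudocount, just short of 2-fold, and -0.98 on estimated fragments. On estimated fragments ADAM28 stood at a log2 ratio of -0.27 and ADAMTS12 at -0.31, under either size. ADAM9, the most abundant, stood at 104 FPKM in shPSPC1 and 115 in shLacZ, and ADAM15 at 14.8 in shPSPC1 and 18.2 in shLacZ. ADAM10 and ADAM17, the main sheddases, stood at 58.8 and 23.9 FPKM in shPSPC1, against 53.9 and 20.1 FPKM in shLacZ.

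Genes of matrix proteins that these enzymes cut numbered 18, of which 15 reached 1 FPKM. All 15 had a log2 ratio below 0, 1 was past 2-fold and 4 were past 1.5-fold, all lower. Of all genes at 1 FPKM or more, 48.95% were below 0, 2.05% called lower at 2-fold and 5.57% at 1.5-fold. COL7A1 (-0.002) and LAMA5 (-0.039) had overlapping intervals. On estimated fragments, COL7A1 (0.007) and COL4A5 (0.005) lay just above 0. The 1 past 2-fold was TNC, tenascin C, at 3.24 FPKM in shPSPC1 and 10.7 FPKM in shLacZ (log2 ratio -1.46). COL4A2 of type IV collagen stood at 32.0 FPKM in shPSPC1 and 52.6 in shLacZ, and FN1, fibronectin, at 62.5 in shPSPC1 and 76.7 in shLacZ. The median of the 15 was -0.28, against 0.01 for all genes and -0.60 for the 4 enzymes that reached 1 FPKM. Markers of A549 and lung epithelium were below 0 for 7 of the 8 that reached 1 FPKM, with a median of -0.30. Among the 7, ALDH1A1 (-0.24) had an interval in shLacZ from 0 to 6597 FPKM. On estimated fragments its log2 ratio was 0.08. The 3 markers of differentiated lung epithelium in that list, NKX2-1, SFTPB and SFTPC, were under 1 FPKM in both libraries. KRT19 stood at 130.1 FPKM in shPSPC1 and 216 in shLacZ, and AKR1B10, an aldo-keto reductase abundant in A549, at 2131 in shPSPC1 and 1072 in shLacZ. The 18 stromal and immune markers summed to 14.95 FPKM in shPSPC1 and 21.0 in shLacZ, 3 of them (CD163, MPO and CD3E) were listed at 0 in both, and most of the sum was CD68, at 8.91 FPKM in shPSPC1 and 15.6 in shLacZ. The markers did not share a direction: ACTA2 stood at 2.71 FPKM in shPSPC1 and 1.74 in shLacZ, ITGAM at 0.851 in shPSPC1 and 0.434 in shLacZ, and CD14 at 1.89 in shPSPC1 and 2.07 in shLacZ. Their part in the levels of the members was not tested.

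**Figure D5:**
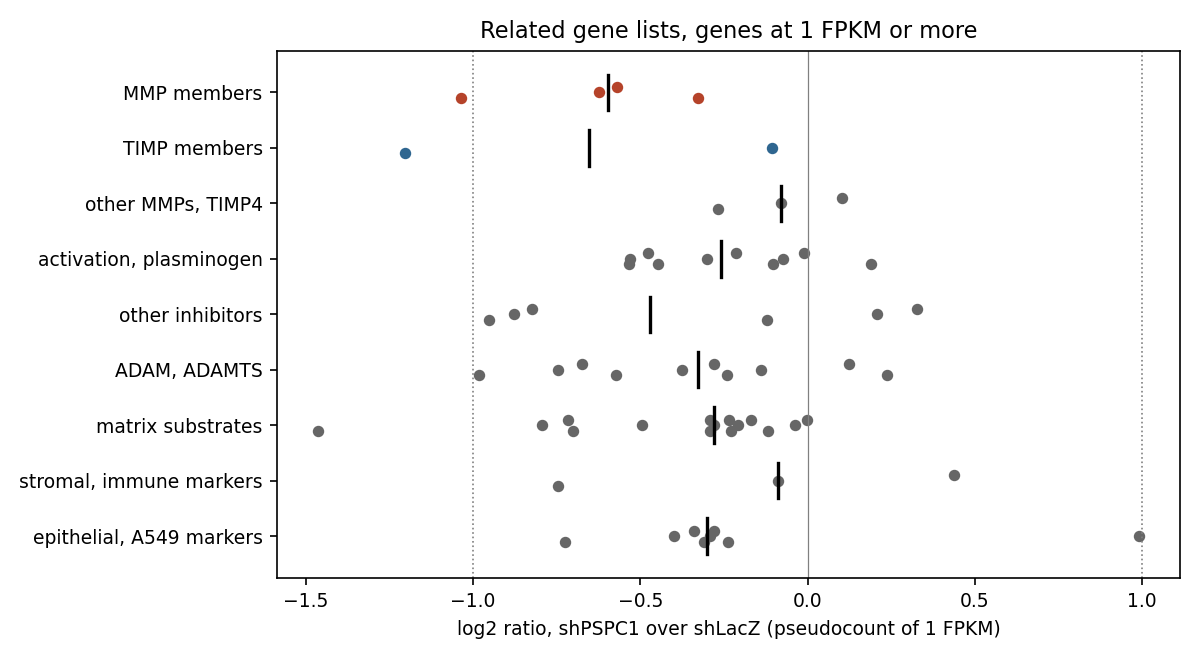
Log2 ratio of shPSPC1 over shLacZ (pseudocount of 1 FPKM) of each gene at 1 FPKM or more in either library, by gene list, with the median of each list as a black bar and dotted lines at log2 ratios of 1 and -1. TNC among the matrix substrates and MMP7 and TIMP2 among the members lie past -1.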

How the data were processed

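Trizol-extracted RNA was made into Illumina libraries, per the labels' protocols. Tools listed in the submitters' processing notes are Cufflinks 2.1.1, TopHat2 2.0.7 and CASAVA 1.8.2. The sources used here do not give poly(A) selection, strandedness, genome build or annotation version. The authors deposited 1 transcript file per library with FPKM values and 95% intervals, and a score column that was not used. Gene levels were summed over RefSeq transcripts and stranded assembled transcripts sharing an intron, half-widths as the root of summed squares, and ratios of sums bounded by the delta method (Python 3.11.15, NumPy 2.4.6). Fragments were estimated from FPKM, effective length and depth. Depth was fitted on transcripts alone at their locus, whose fragments were derived from the FPKM and its half-width. Between 5 and 200 fragments, these derived values were whole numbers within 0.02 for 95.1% in shPSPC1 and 95.4% in shLacZ. That share does not check the fragments estimated for the members. Without counts and with 1 library per group, no test was run. The call rule was tried on libraries simulated from the shLacZ levels with counting error only and with changes larger than 2-fold. That trial therefore says nothing about variation between cultures or about changes near 2-fold. Strandless assembled transcripts (36255 in shPSPC1 and 29208 in shLacZ) were left out. Alternatives covered the pseudocount, the transcripts counted, the unit summed, the scaling, the size of change and the members summed. All members were named, and other lists gave up to their 4 most abundant genes at 10 FPKM or more and those past a size; a few further genes were added after their values were seen. 1 gene of the protease inhibitor list is not reported here by name. The members and lists were chosen with earlier results of these data known.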

Additional observations from a re-analysis of the deposited data

Results flagged for a closer look

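An assembled transcript that overlaps the first exon of MMP14 without sharing an intron with it was listed only in the shPSPC1 library. Its level there was 0.209 FPKM (0.0955 to 0.322). It has 2 exons on the plus strand of chromosome 14, from 23304740 to 23306329 in the coordinates of the files, and lies outside the MMP14 level given above, which was 0.152 FPKM in shPSPC1 and 0.0580 FPKM in shLacZ. It drew attention as a signal in data outside the gene levels with no counterpart assembled in the control library. Each library has its own list of assembled transcripts, 47148 in shPSPC1 and 39901 in shLacZ. A missing one at so low a level does not show that no RNA was there.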

How the results depend on the processing

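With 1 library per group, differences between cultures cannot be seen, and the intervals cover error within a library only; members under 1 FPKM rest on an estimated 6 to 61 fragments per library. No paired analysis was possible because each group holds 1 library. The log2 ratio of shPSPC1 over shLacZ kept its sign in 69 of 70 alternatives over the 10 members. The exception was MMP9 with annotated transcripts alone (0.06, against -0.13). Many of the 70 could not have changed the sign, since a pseudocount never turns it. For 7 members, whose level came from 1 annotated transcript, the transcripts counted and the unit summed also made no difference. The log2 ratio ranged from -1.04 to -1.03 for MMP7, -1.30 to -1.20 for TIMP2 and -0.66 to -0.62 for MMP24. The rule called 2 members lower under each alternative but the 1.5-fold size, which gave 3, and 0 higher under all. Over all genes, annotated transcripts alone gave 536 lower and 538 higher calls, against 241 and 216. The summed enzymes had a log2 ratio of -0.69 without MMP7 and the summed inhibitors -1.31 without TIMP1. The balance, -0.65 over all members, was -0.33 without MMP7 and turned to 0.31 without TIMP1. Without TIMP1 the inhibitor sum was nearly all TIMP2, and TIMP4 was in none of these sums. With equal weight for each member the balance was 0.03, a small value without an interval that shows no clear direction. The equal-weight value sets mean log2 ratios with the pseudocount against each other, -0.41 for enzymes and -0.44 for inhibitors. Its measure thus differs from the ratio of sums in more than the weights.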
